A study of Mus musculus with 1111 samples.

Results

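Mertk, Axl, Gas6, Pros1, Elmo1, Dock2 and Rac1 code for receptors, bridging proteins and internal signalling proteins of the uptake of dying cells. These 7 genes were taken as a named list from the 35583 genes of the deposited tables, and each symbol stood on a single gene. Their expression was read in single microglia taken from brains of mice aged 3 months. All of the mice had received plasma proteins labelled with the fluorescent dye NHS-Atto647N 20 hours before the cells were taken, so the data hold no microglia from mice without the injection. The cells were sorted by the plasma signal inside them into plasma intensity none, low and high, written here as the none, low and high groups, and each was made into a Smart-seq2 library, a full-length method with 1 library per cell and no molecular identifiers. Strain, sex and genotype are not given in the sources used here. Each label also carries a TH number from 1 to 3 whose meaning is not stated.

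Macrophages recognise a dying cell by phosphatidylserine on its surface. Mertk and Axl are receptor tyrosine kinases of the TAM family, which do not touch that lipid themselves. Gas6 and Pros1 (protein S) bind the lipid at one end and the receptor at the other, Gas6 serving both receptors and Pros1 mainly Mertk and Tyro3. Inside the cell, ELMO adaptors and DOCK proteins load GTP onto Rac1, the small GTPase whose activity extends the membrane around the prey. Mertk is regarded as the TAM receptor of resting microglia and Axl as one that activated microglia gain. Protein S is also a circulating anticoagulant, so its protein in the brain can come from plasma, while the values here are transcripts of the microglia.

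After the cell filter, 987 cells remained, 35.1% of them in the none group, 35.6% in the low group and 29.4% in the high group, and their reads were summed by group and TH number into 9 sums of 21309816 to 49323522 reads. Median reads per cell were 207429 in the none group, 229931 in the low group and 267143 in the high group, so that cells with more plasma signal were read more deeply. The 8 microglial markers together held between 45387 and 54371 counts per 1000000 reads in genes (CPM) in every sum. The border-associated macrophage markers Pf4, Cd163, Lyve1 and Ms4a7, the monocyte markers Ly6c2, Plac8 and Chil3, and the endothelial markers Cldn5, Ly6c1, Slco1a4 and Itm2a had no read. Summed markers of border-associated macrophages stayed at or below 22.2 CPM, those of monocytes at or below 8.42 CPM and those of endothelial cells at or below 26.1 CPM. Astrocyte markers, mainly Slc1a3, averaged 325.3 CPM, 278.97 CPM and 225.06 CPM in the none, low and high groups, with Gja1 at 0. Oligodendrocyte markers, mainly Cnp and with Mog and Cldn11 at 0, averaged 158.9 CPM in the none group, 165.8 CPM in the low group and 212.5 CPM in the high group. Neuronal markers reached 57.98 CPM in 1 sum of the high group and were at or below 2.32 CPM in all sums of the other groups. The none group occupied plate columns 1 to 8, the low group columns 9 to 16 and the high group columns 17 to 23, so plasma signal and plate position cannot be told apart. No label names an animal, so each group counts as 1 sample of cells. No test between groups was made, and errors are the SD over the 3 TH numbers.

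Among the 7 genes, Axl and Pros1 were higher in the high group than in both other groups with no overlap between TH numbers. Axl was 6.24-fold and Pros1 1.52-fold higher in the high group than in the none group, as ratios of CPM plus 1 averaged over TH numbers. Mertk and Gas6 had nearly the same mean level in the high group and the none group, and Elmo1, Dock2 and Rac1 had higher means in the high group by less than the SD. Levels higher without overlap occurred in 8.51% of the genes tested for the high group against the none group and in 5.2% for the high group against the low group, where Axl, as a low gene, was not among those tested. The plot of levels by plasma signal shows each gene in the 9 sums.

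**Figure D1:**
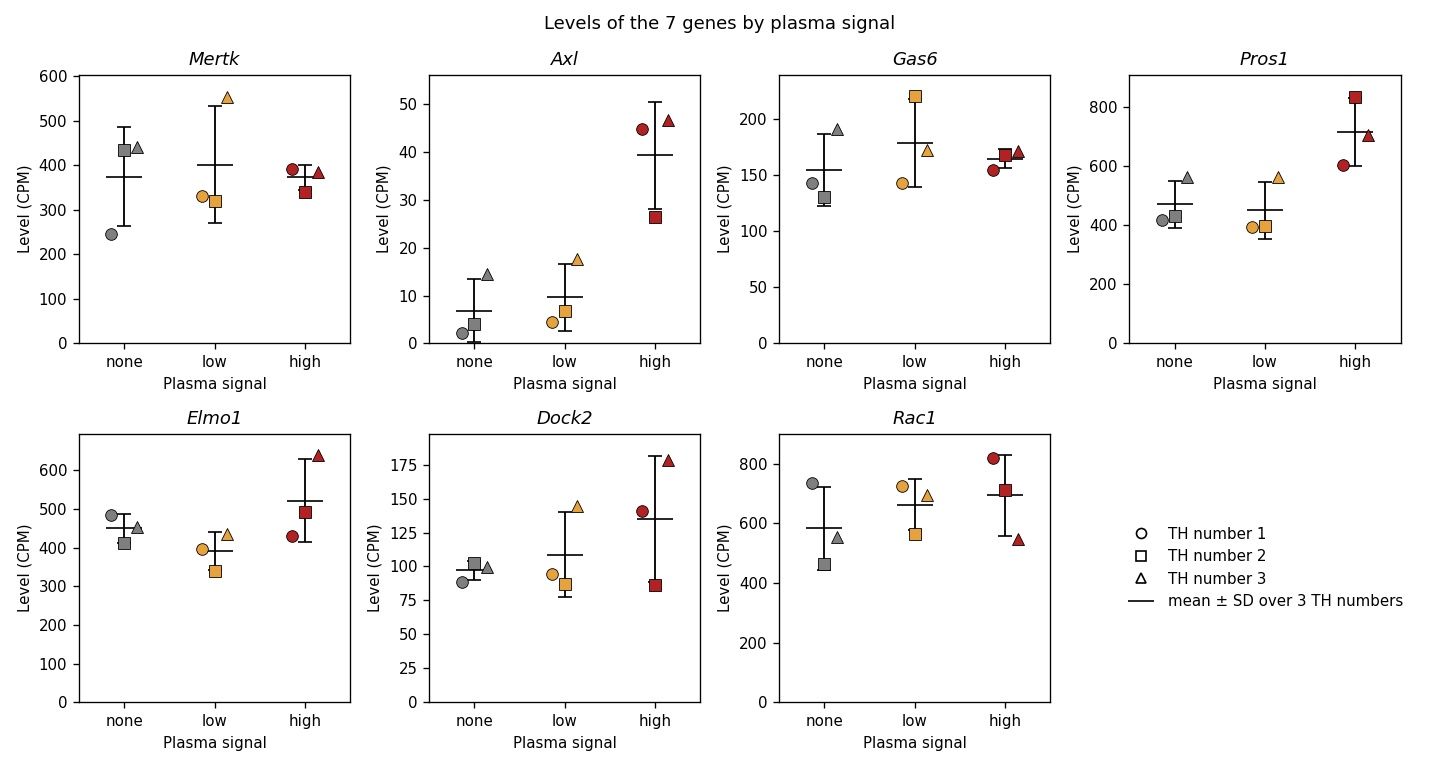
Level of each of the 7 genes in CPM (vertical axis, starting at 0) in the none, low and high groups, with 1 point per TH number and the mean ± SD over the 3 TH numbers. In the Axl and Pros1 panels all high-group points lie above all points of the other groups, whereas the groups overlap for the other 5 genes.

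Mertk lies on chromosome 2 at chr2:128698956-128802894, plus strand, in mm10 (GRCm38), and is a main receptor by which macrophages take up dying cells. Its level in the none group was 245.8, 435 and 441 CPM in TH numbers 1, 2 and 3. In the low group it was 331.4, 319.2 and 554 CPM, and in the high group 392, 340 and 386 CPM. The 3 groups overlapped throughout, and the high-group values lay within the range of the none group. The means were 374.04 ± 111.1 CPM in the none group, 401 ± 131.9 CPM in the low group and 372.6 ± 28.3 CPM in the high group (SD, n = 3). The log2 ratio of the high group to the none group was 0.04 ± 0.55 and differed in sign between TH numbers, being 0.67, −0.35 and −0.19. After each cell was thinned to 50000 reads, a Mertk read was found in 68.5% of none-group cells, 69.8% of low-group cells and 68.97% of high-group cells. Mertk was thus seen in nearly the same share of cells at each plasma signal, within the counting intervals given with the plot of detection. An antisense gene and a small nucleolar RNA gene overlap Mertk, and since the use of strand in counting is not given in the sources used here, reads from them cannot be told apart from its own.

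Axl, the other receptor, lies at chr7:25757273-25788705, minus strand, with no annotated gene overlapping it. Its level was 2.12, 4.12 and 14.4 CPM in the none group, 4.48, 6.85 and 17.6 CPM in the low group, and 44.7, 26.4 and 46.6 CPM in the high group. Every high-group value lay above every value of the other groups, while the none group and the low group overlapped. The means were 6.88 ± 6.59 CPM, 9.64 ± 6.99 CPM and 39.3 ± 11.2 CPM (SD, n = 3). The log2 ratio of the high group to the none group was 2.64 ± 1.14, and it was 3.87, 2.42 and 1.63 in the 3 TH numbers. Against the low group it was 2.07 ± 0.88, which is 4.21-fold. The low group exceeded the none group by 0.57 ± 0.27 on the log2 scale, also with the same sign in all TH numbers, but this value was 1.57 ± 0.80 with the top cell left out of each sum, 1.02 ± 1.22 with each cell weighted equally and 0.96 ± 1.35 at equal depth, the last 2 smaller than their SD. These ratios are of CPM plus 1, which understates the fold of a gene as low as Axl.

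The Axl reads came from few cells. A read was present in 5 cells of the none group (1.45%, 95% Clopper-Pearson interval 0.471 to 3.34%), 13 cells of the low group (3.70%, 1.99 to 6.25%) and 25 cells of the high group (8.62%, 5.66 to 12.5%). The intervals of the none group and the high group do not overlap, and that of the low group overlaps both. They cover counting error only and treat the cells of a group as independent. Within the high group the share was 8.91%, 9.38% and 7.53% in the 3 TH numbers, against 1.72%, 0.885% and 1.71% in the none group. With every cell thinned to 50000 reads, 5, 11 and 24 cells kept an Axl read, so the order of the shares was the same at equal depth. Among cells with an Axl read, the median level was 387 CPM in the none group, 286.1 CPM in the low group and 454 CPM in the high group. The high group thus had more cells with a read, while the level within such cells ranged widely in each group and rested on 5, 13 and 25 cells. The single cell with the most reads held 42.5% of the Axl reads of the none group and 19.4% of those of the high group. Without the top Axl cell of each sum, the log2 ratio of the high group to the none group was 3.62 ± 1.26. The none group had 2, 1 and 2 cells with an Axl read in TH numbers 1, 2 and 3. Leaving out the top cells thus left no Axl read in TH number 2 of the none group, so the ratio is not a check on 1 dominant cell.

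All 43 cells with an Axl read carried at least 6 of the 8 microglial markers. None of them had a read of any border-associated macrophage, monocyte or neuronal marker, and none had more than 1 endothelial marker. Most of the border-associated macrophage, monocyte and endothelial markers had no read in any passing cell, so their absence here says little. An astrocyte marker was read in 17 of the cells with an Axl read and an oligodendrocyte marker in 19, with at most 2 such oligodendrocyte markers in a cell. The same counts are not given for cells without an Axl read, so no difference between the 2 kinds of cell can be read from them. Without cells that carried at least 2 markers of another cell type at 10 CPM or more, the log2 ratio of Axl in the high group to the none group was 3.06. How many of the 5 none-group cells with an Axl read this took out is not given here. By plate column, a cell with an Axl read occurred in each of the 7 columns of the high group, at 3 to 6 cells and 6.98 to 14.3% of the cells of a column. In the low group 7 of 8 columns held such a cell, at up to 9.09% of the cells of a column, which overlapped the high-group columns. In the none group 4 of 8 columns held one, at up to 4.35%.

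**Figure D2:**
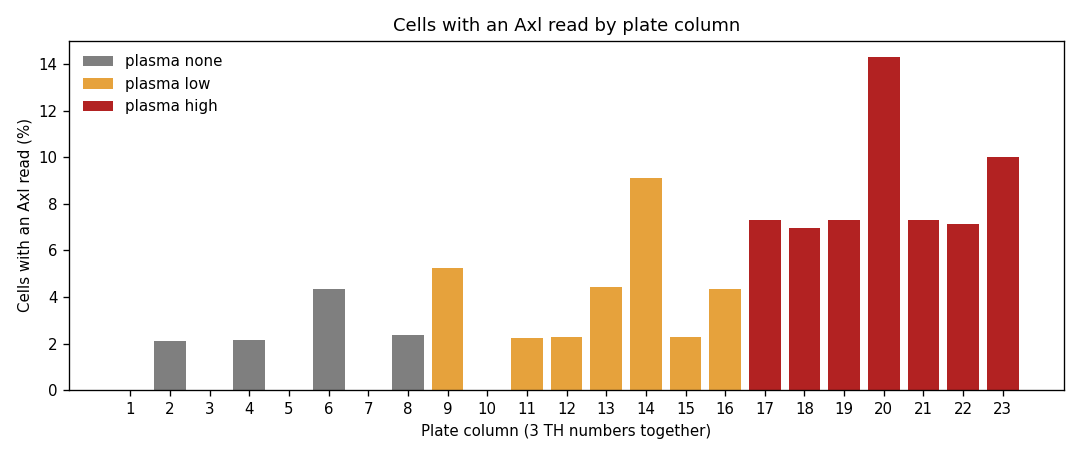
Percent of passing cells with at least 1 Axl read (vertical axis) in each plate column (horizontal axis), over the 3 TH numbers, with bars coloured by plasma group. Every high-group column holds Axl-read cells, at 6.98 to 14.3%, the low-group columns overlap them at up to 9.09%, and the none-group columns reach at most 4.35%.

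Gas6, the bridge that binds both receptors, lies at chr8:13465374-13494490, minus strand. It was at 143.2, 130 and 191.3 CPM in the none group, 143.6, 221.2 and 172.7 CPM in the low group, and 154.95, 168.2 and 171.6 CPM in the high group. The groups overlapped, and the high group showed the smallest spread. The means were 154.97 ± 32.1, 179.1 ± 39.2 and 164.9 ± 8.78 CPM (SD, n = 3), and the log2 ratio of the high group to the none group was 0.11 ± 0.26. Thinned to equal depth, a Gas6 read was present in 29.5% of none-group cells (24.7 to 34.6%), 37.04% of low-group cells (31.97 to 42.3%) and 30.7% of high-group cells (25.4 to 36.3%). Gas6 was thus read in fewer cells than Mertk in every group. The protein-coding gene Tmem255b overlaps Gas6 on the other strand, so a part of these reads could not be assigned by position alone.

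Pros1, the second bridge, lies at chr16:62854307-62929346, plus strand, with no annotated gene overlapping it. It was at 420, 433 and 563 CPM in the none group, 393, 398 and 563 CPM in the low group, and 606, 835 and 708 CPM in the high group. All 3 high-group values exceeded all 6 values of the other groups, which overlapped each other. The means were 472 ± 79.02, 451 ± 96.4 and 716 ± 114.8 CPM (SD, n = 3). The log2 ratio of the high group to the none group was 0.60 ± 0.31, with 0.53, 0.95 and 0.33 in the 3 TH numbers. Against the low group it was 0.67 ± 0.37, with 0.62, 1.07 and 0.33. Both were larger than their SD and had 1 sign throughout, while the low group differed from the none group by only −0.07 ± 0.06.

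A Pros1 read was present in 65.6% of none-group cells (60.3 to 70.6%), 68.1% of low-group cells (62.9 to 72.9%) and 75.2% of high-group cells (69.8 to 80.04%). At 50000 reads a cell the shares were 61.6%, 64.4% and 70.3%. The high group was the highest group in both, but its interval overlapped those of the others. The median level over all cells, zeros included, was 97.1 CPM in the none group, 177.5 CPM in the low group and 257.99 CPM in the high group, as counted and not at equal depth. The cell with the most Pros1 reads, at 9863 CPM, held 7.83% of the Pros1 reads of the high group. Without the top cell of each sum the log2 ratio of the high group to the none group was 0.50. Without cells carrying 2 markers of another cell type it was 0.40 ± 0.51, and against the low group 0.48 ± 0.61, both smaller than their SD. With each cell weighted equally the ratio to the low group was 0.43 ± 0.50, also within its SD. The part of the higher oligodendrocyte and neuronal markers of the high group in this result was not tested further.

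The upstream sequences of Axl and Pros1 are given because these were the genes whose high-group values stood apart. Each is the 250 bases before the RefSeq transcription start, 5′ to 3′ on the strand of the gene, in GRCm38.p6, with capitals marking the 6 bases of a GC box (GGGCGG, or CCGCCC for the other strand), a motif bound by Sp-family factors. The Axl window is chr7:25788734-25788983 on the minus strand and the Pros1 window chr16:62854057-62854306 on the plus strand.
Axl: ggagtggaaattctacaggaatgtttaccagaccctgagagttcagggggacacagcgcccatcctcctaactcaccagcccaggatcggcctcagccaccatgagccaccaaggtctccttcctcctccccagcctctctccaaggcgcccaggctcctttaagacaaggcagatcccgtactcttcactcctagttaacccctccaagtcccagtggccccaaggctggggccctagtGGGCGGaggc
Pros1: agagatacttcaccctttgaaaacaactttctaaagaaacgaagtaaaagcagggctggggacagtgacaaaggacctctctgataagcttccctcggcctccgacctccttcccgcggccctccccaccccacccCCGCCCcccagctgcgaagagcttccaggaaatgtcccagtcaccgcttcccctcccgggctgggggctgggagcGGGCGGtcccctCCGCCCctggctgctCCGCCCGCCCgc
The Axl window held 1 GC box and the Pros1 window 5, of which the last pair overlap. At least 1 was found in 32.7% of all 32851 windows of that length, and G and C made up 64.4% of the Pros1 window against a median of 52.4%. These are matches of letters and not measured binding sites.

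Elmo1, the adaptor that partners with DOCK proteins, lies at chr13:20090596-20608353, plus strand. It was at 485, 411 and 453 CPM in the none group, 396, 339.3 and 436 CPM in the low group, and 431, 492 and 640 CPM in the high group. In every TH number the low group was the lowest of the 3 groups for this gene. The means were 450 ± 36.8, 391 ± 48.7 and 521 ± 107.6 CPM (SD, n = 3). The log2 ratio of the high group to the low group was 0.40 ± 0.24 with 1 sign, although the levels of the 2 groups overlapped across TH numbers. The low group was below the none group by −0.21 ± 0.13 on the log2 scale, and the high group to the none group was 0.20 ± 0.34 with both signs. The share of cells with an Elmo1 read at equal depth was 67.1%, 65.2% and 69.3% in the none, low and high groups. The annotation places 4 other genes over the span of Elmo1, of which 3 run on its strand.

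Dock2, the exchange factor of blood-lineage cells that activates Rac, lies at chr11:34226815-34783892, minus strand. It was at 88.9, 102.5 and 99.9 CPM in the none group, 94.6, 86.8 and 144.5 CPM in the low group, and 140.6, 86.2 and 178.4 CPM in the high group. The high group held both the highest value and the lowest, so the groups overlapped. The means were 97.1 ± 7.23, 108.6 ± 31.3 and 135.1 ± 46.3 CPM (SD, n = 3), and the log2 ratio of the high group to the none group was 0.41 ± 0.58. A Dock2 read at equal depth was present in 28.03%, 33.3% and 34.8% of the cells of the none, low and high groups. The gene overlaps the protein-coding gene Fam196b and an antisense transcript, both on the other strand.

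Rac1, the GTPase on which the signals of the receptors converge, lies at chr5:143503634-143528036, minus strand. It was at 735, 463 and 553 CPM in the none group, 726, 566 and 695 CPM in the low group, and 821, 713 and 549 CPM in the high group. The TH numbers differed among themselves as much as the groups did, and the group with the highest value was the high group in TH numbers 1 and 2 and the low group in TH number 3. The means were 584 ± 138.8, 662 ± 84.99 and 694 ± 136.7 CPM (SD, n = 3), and the log2 ratio of the high group to the none group was 0.26 ± 0.33. It was the most widely detected of the 7 genes, with a read at equal depth in 85.8% of none-group cells (81.7 to 89.3%), 92.02% of low-group cells (88.7 to 94.6%) and 90.3% of high-group cells (86.3 to 93.5%). Daglb, a protein-coding gene, overlaps it on the other strand.

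**Figure D3:**
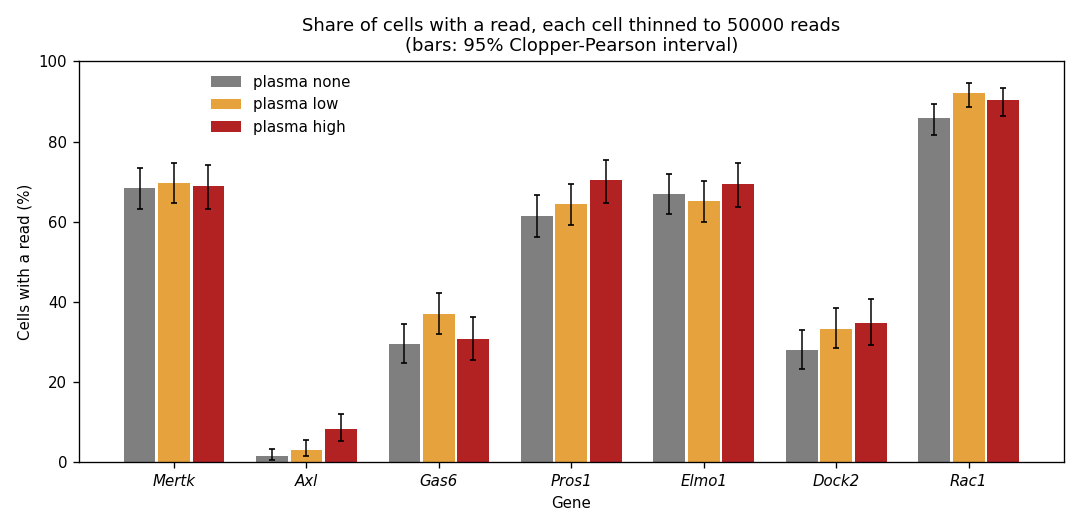
Percent of cells with at least 1 read (vertical axis) of each gene in the none, low and high groups, after each cell was thinned to 50000 reads, with exact 95% intervals that cover counting error only. Axl is lowest, at 1.45 to 8.28% of cells, and Rac1 highest, at 85.8 to 92.02%.

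A gene met the size rule if its mean log2 ratio was at least 1 in size with the same sign in all 3 TH numbers, its mean level was at least 20 CPM and at least 1 group had a read in 10% or more of its cells. None of the 7 genes met the rule in the high group against the none group, where it called 5.15% of 5534 genes tested. None met it in the low group against the none group or in the high group against the low group either, where it called 2.64% of 5489 genes and 3.28% of 5709 genes. The low-value filter was passed by 6 of the 7 genes, and Axl missed it, with a read in under 10% of the cells of each group and, for the low group against the none group, levels under 20 CPM as well. Without that filter Axl met the size rule in the high group against the none group and in the high group against the low group, where the unfiltered rule called 3.91% of 17182 genes and 2.98% of 17221 genes higher.

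Over the 7 genes the median log2 ratio of the high group to the none group was 0.26, and over all genes tested it was 0.05. Of the 7 genes, Axl and Pros1 were higher in the high group with the same sign in every TH number and the other 5 had both signs, a pattern that 18.8% of genes tested showed in the higher direction and 13.8% in the lower. The corresponding medians were 0.13 against 0.05 for the low group to the none group, and 0.29 against 0.01 for the high group to the low group. Both medians of the 7 genes were the value of Dock2. Over the alternatives its ratio ran from −0.07 to 0.31 and from 0.08 to 0.43, so neither median is firm. In the high group against the low group, Mertk and Gas6 had slightly lower means in the high group, at log2 ratios of −0.06 ± 0.40 and −0.10 ± 0.26. The 3 comparisons share groups and are not independent of each other.

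**Figure D4:**
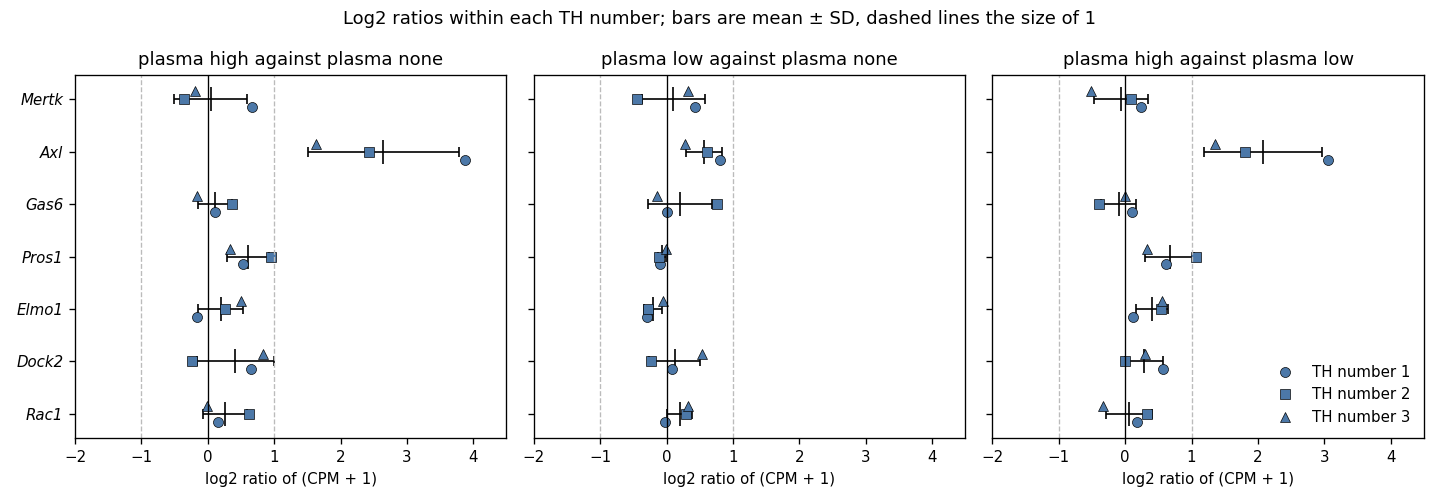
Log2 ratio of CPM plus 1 (horizontal axis) for each of the 7 genes in each comparison, 1 point per TH number, with the mean ± SD and dashed lines at −1 and 1. Axl lies beyond 1 in every TH number in both comparisons with the high group, Pros1 lies between 0.33 and 1.07 there, and most other genes straddle 0.

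Levels can be set against each other between genes only per length, here CPM per kilobase of merged exons averaged over the 9 sums. Rac1 was highest at 143.9, followed by Pros1 at 133.7, Mertk at 88.3, Gas6 at 65.3, Elmo1 at 36.1, Dock2 at 9.94 and Axl at 3.69 CPM per kilobase. Rac1 and Pros1, Pros1 and Mertk, and Mertk and Gas6 overlapped over the sums, so these neighbours were not separated beyond their spread. By group, mean Pros1 was above Rac1 in the high group, at 175.2 against 154.4, and below it in the none and low groups. Gas6, at 51.2 to 86.8, stayed just above Elmo1, at 26.97 to 50.9. Elmo1 in turn stayed above Dock2, at 7.55 to 15.6, whereas Dock2 and Axl, at 0.422 to 9.26, overlapped. Merged exons count every annotated transcript of a gene, so a gene with long exons that are rarely used comes out low on this scale.

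A receptor and a bridge were often read in the same cell. At 50000 reads, Mertk or Axl together with Gas6 or Pros1 was present in 51.7% of none-group cells (46.3 to 57.1%), 59.3% of low-group cells (53.9 to 64.4%) and 58.6% of high-group cells (52.7 to 64.3%). A bridge alone or with a receptor was present in 72.3%, 76.9% and 80.3% of cells, and a receptor in 68.8%, 70.4% and 71.7%. Over all groups, Pros1 was read in 68.8% of the 682 cells with Mertk (65.1 to 72.2%) and in 57.05% of the cells without it (51.3 to 62.7%). Elmo1 and Rac1 were also read more often in cells with Mertk, at 70.5% against 59.3% and at 91.6% against 84.3%. These shares were not adjusted for the number of genes read per cell. Of the 40 cells with an Axl read at this depth, 72.5% had Pros1 (56.1 to 85.4%), against 64.8% of the other 947 cells (61.7 to 67.9%), which is not distinguishable at this number of cells.

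For each of the 6 genes with a mean of at least 20 CPM, the closest patterns were sought among 6950 genes over the 9 sums, each centred on its TH number. The nearest genes were Unc13a and Colgalt1 for Mertk (Pearson r 0.97 for both), Sdha and Ints3 for Gas6 (0.97 for both), and Trim28 and Eci2 for Pros1 (0.97 for both). They were Dhx9 (0.96) and Rif1 (0.95) for Elmo1, Msl3 (0.98) and Psme1 (0.97) for Dock2, and Eif4b (0.99) and Eif3b (0.98) for Rac1. These are the highest of 6950 values each, from only 9 sums of differing depth, and are given as a description. Among the genes themselves, the r of Pros1 was 0.67 with Elmo1, 0.62 with Rac1, 0.02 with Mertk and −0.06 with Gas6. These rest on n = 9 sums, fewer free values after centring, and differences between them were not tested.

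The other genes of the pathway are described in 4 lists. Of 16 other receptors for dying cells, 6 passed the low-value filter in the high group against the none group and 0 met the size rule. Tyro3, the third TAM receptor, had no read in 987 cells, which allows a share of cells with a read of up to 0.304%. Timd4, Havcr1, Adgrb1, Stab2 and Megf10 were likewise without a read. The vitronectin receptor subunit Itgb5 was the most abundant of the list. It stood at 1184 ± 164.6 CPM in the none group, 1196 ± 120 CPM in the low group and 1586 ± 111.2 CPM in the high group, and its high-group values did not overlap the others. Its log2 ratio of the high group to the none group was 0.43 ± 0.14. The list's median was 0.28, beside 0.05 over all genes tested. Of the 6 that passed the filter, 3 were higher in the high group in every TH number, Itgb5 among them, and 1 was lower. The lower one was Havcr2, the phosphatidylserine receptor TIM-3, at −0.34 ± 0.07, and it is named after its values were seen.

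Among 6 other bridges, 3 passed the filter, all of them complement C1q chains, and 0 met the size rule. C1qb, the most abundant, was at 5673 ± 804 CPM in the none group, 6366 ± 738 CPM in the low group and 6830 ± 444 CPM in the high group, with overlapping groups and a log2 ratio of 0.28 ± 0.14 for the high group to the none group. The bridge Edil3 had no read. The list's median log2 ratio was 0.10.

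Of 18 other adaptors and exchange factors, 11 passed the filter in the high group against the none group, 1 met the size rule as higher and 0 as lower, and the median was −0.27. The gene that met it was Crkl, an SH2 and SH3 adaptor related to Crk. Crkl was at 41.6, 7.12 and 12.6 CPM in the none group, 43.8, 59.8 and 22.7 CPM in the low group, and 62.8, 65.04 and 29.7 CPM in the high group. The none group was the lowest group in each TH number, but TH number 2 carried most of the size. Its log2 ratio of the high group to the none group was 1.59 ± 1.27, with 0.58, 3.02 and 1.17 in the TH numbers, and of the low group to the none group 1.26 ± 1.47. Without TH number 2 these were 0.88 and 0.44, below the size rule, and with each cell weighted equally they were 0.91 and 0.98. Dock4, the most abundant of the list, went the other way, with 411 ± 131.7 CPM in the none group, 289.02 ± 97.7 CPM in the low group and 277.6 ± 125.6 CPM in the high group. Its log2 ratio was −0.63 ± 0.29 for the high group and −0.51 ± 0.08 for the low group against the none group. Dock1, the exchange factor usually paired with Elmo1 outside blood cells, was higher in the high group than in the none group at 0.95 ± 0.30, also named after its values were seen. Gulp1, Bcar1, Dock5 and Vav3 had no read.

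The last list held 9 genes of receptor shedding, cytokine feedback and the nuclear receptors that follow uptake, of which 6 passed the filter and 0 met the size rule, with a median of 0.31 for the high group to the none group. Abcg1, a cholesterol exporter and the most abundant, was at 1268 ± 145.5 CPM in the none group, 1055 ± 190 CPM in the low group and 943 ± 309.2 CPM in the high group. It was lower in the high group in every TH number, by a mean log2 ratio of −0.48 ± 0.54, which is within its SD. Abca1, another cholesterol exporter, was higher in the high group in every TH number at 0.63 ± 0.32. Adam10, a protease that can shed surface receptors, was at −0.11 ± 0.12, within its SD. Both Abca1 and Adam10 are named after their values were seen.

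**Figure D5:**
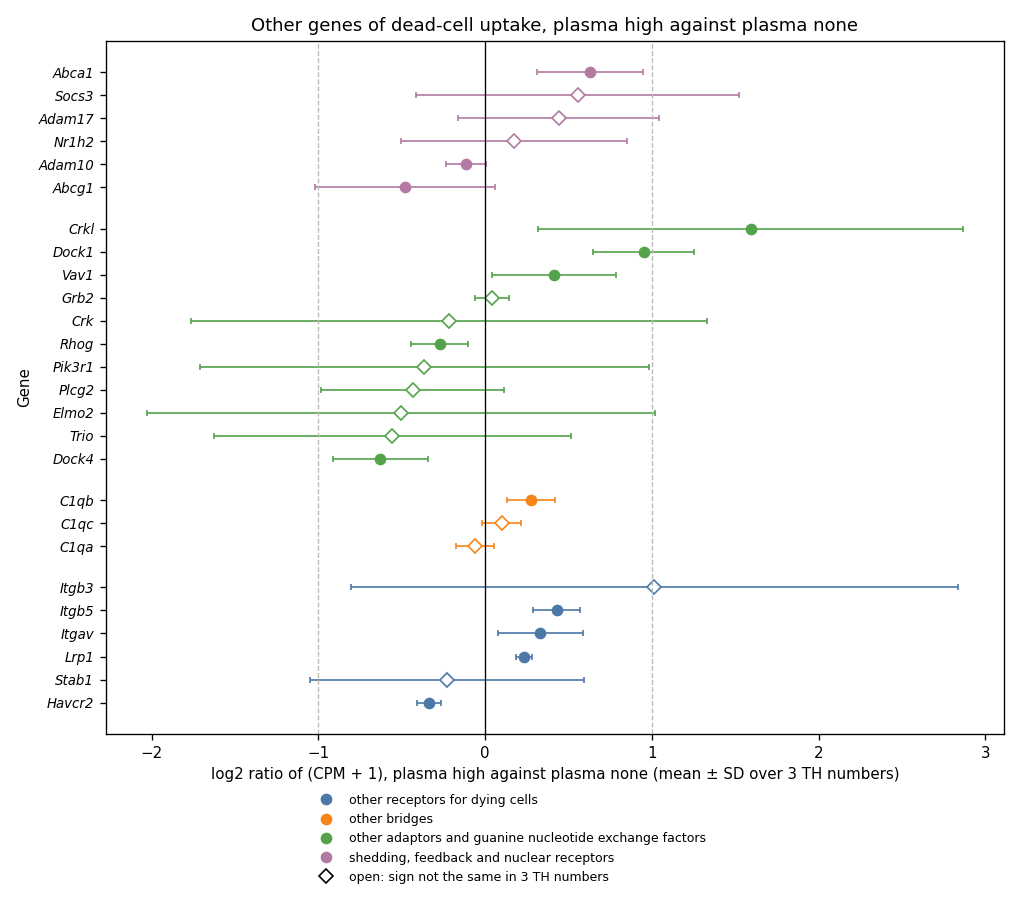
Mean log2 ratio of the high group to the none group (horizontal axis, ± SD over 3 TH numbers) for the genes of the 4 lists that passed the low-value filter, coloured by list, with open symbols where the sign differed between TH numbers and dashed lines at −1 and 1. Crkl, at 1.59, lies beyond 1 with the same sign throughout, and Dock4, at −0.63, lies to the left of 0.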

How the data were processed

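Smart-seq2 libraries of single microglia were counted by the authors, who deposited a table for each TH number with the count of every gene in every cell. In 1 column of TH number 3 the deposited value was treated as an expected count, because a few values were not whole, and was rounded. The submitters' processing notes name bcl2fastq, Trim Galore, STAR 2.5.3a, Seurat and mm10. How reads were counted, and whether by strand, is not given in the sources used here. Per the file headers, columns of TH numbers 2 and 3 were reduced to top hits, so ratios were taken within a TH number. Of 1111 labelled cells 1045 were matched to a column, and the other 66 were not analysed here. The 1045 columns of standard deviations were not used. A cell passed with at least 50000 reads and 500 genes, which 987 did. Reads were summed by group and TH number and scaled to CPM with TMM factors (edgeR 4.0.16, R 4.3.3). Log2 ratios used a pseudocount of 1 CPM. Shares of cells carry exact Clopper-Pearson 95% intervals, which treat the cells of a group as independent and cover counting error only. Reads without molecular identifiers are not independent molecules. From sums alone, fewer expressing cells and less RNA per cell cannot be told apart, so shares of cells are given beside them. The size rule was tested on simulated data. Named genes were the 7 genes, every gene of the pathway lists that met the size rule, the most abundant gene of each list, and for likeness the 2 highest Pearson correlations. Genes without a read were named as well, and other genes named outside this rule are marked. A further pathway list that was fixed is not reported here. The 7 genes and the lists were chosen with earlier results of these data known. Alternatives were 2 other scalings (library size, and DESeq2 1.42.0 size factors), other pseudocounts, filters, cell weights, thinned depth, wells and TH numbers.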

Additional observations from a re-analysis of the deposited data

How the results depend on the processing

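Over the recomputed log2 ratios of the 7 genes, 7 moved by more than 1 SD and 16 took the other sign. Of the 7, 3 were Axl and 4 were Pros1, all in the low group against the none group. The sign changes were in Mertk, Gas6, Dock2, Rac1 and, for the low group against the none group, Pros1. Axl and Pros1 kept their direction in both comparisons with the high group under every alternative run. Axl in the high group to the none group ran from 2.00 (pseudocount 5 CPM) to 3.62 (top cell left out of each sum), and Pros1 from 0.40 (without cells carrying 2 markers of another cell type) to 0.74 (without TH number 3). The 3.62 comes from sums in which TH number 2 of the none group had no Axl read left. Without the filter on low values, the number of the 7 genes that met the size rule was 1 in the high group against the none group and 1 in the high group against the low group, in place of 0, and the gene was Axl. The median log2 ratio over the 7 genes in the high group against the low group, 0.29, was 0.39 without the outermost wells and 0.0796 without cells carrying 2 markers of another cell type, an alternative chosen after seeing the data. It ran from 0.15 to 0.34 when each TH number was left out in turn. The cause of these shifts was not tested. Every ratio was taken within a TH number, so the groups were paired by it throughout. The share of Axl in the none group rests on 5 cells.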
